A study of Mus musculus with 9 samples.

Results

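The expression of 34 genes for lysosomal enzymes and lysosomal membrane proteins was examined in the liver of 9 male mice. The genes were taken by symbol from a list of lysosomal genes, with no threshold on a measured value, and all 34 were found among the 17846 genes of the expression files. All 34 also passed the filter on low counts, which left 13619 genes for testing. The list was divided by function into macrophage-enriched genes (6), proteases (8), glycosidases (7), lipid and phosphate hydrolases with their activator and granulin proteins (7), and membrane proteins with the sterol export proteins (6). The proteases, the glycosidases and 5 hydrolases of lipids and phosphates together formed the 20 housekeeping hydrolases, which were set against the macrophage-enriched genes.

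All mice were labelled as wild type of the strain C57/BL. The 3 Control mice received a normal diet. The 3 NASH mice, labelled Ath diet, received an atherogenic diet with added cholesterol and cholate for 20 weeks and stayed sedentary. The 3 NASH+Exercise mice, labelled EXE+Ath diet, were on that diet for 12 weeks before 8 weeks of treadmill running, which began at 20 weeks of age. The same age at the start of training is given for the Control and NASH mice. Livers were collected after an overnight fast, with 1 library per mouse. The model was driven by the diet alone, without a transgene, and no exercised group on the normal diet was analysed here. Values of single mice are given in the order replicates 3, 4 and 29 for Control, 5, 19 and 20 for NASH, and 8, 18 and 22 for NASH+Exercise.

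Lysosomes are acidic organelles in which hydrolases digest proteins, glycans, lipids and nucleic acids taken up from outside the cell or delivered by autophagy. A proton pump, the vacuolar ATPase, keeps them acidic, heavily glycosylated membrane proteins line them, and the NPC proteins move cholesterol out of them. In liver, hepatocytes use lysosomes for autophagy and lipoprotein uptake, while macrophages, including the resident Kupffer cells, carry many lysosomes and add enzymes that most other cells use little.

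The libraries held 20086004 to 22495449 estimated counts. Levels are given as CPM (counts relative to the library's scaled total) after TMM scaling where mice are compared, and as TPM (a share of all transcripts, which also divides by transcript length) where genes are compared. Changes are log2 fold changes with standard errors (SE) from edgeR's quasi-likelihood test over all 9 mice, and a gene was called at a Benjamini-Hochberg adjusted p under 0.05 over the 13619 genes. The TMM factors of the NASH libraries (1.09 to 1.23) lay above those of the Control libraries (0.8 to 0.976), with NASH+Exercise between 0.912 and 1.08. Scaling by library size alone therefore moved the median change of all genes to 0.36 for NASH against Control and to -0.23 for NASH+Exercise against NASH, and changes below are relative to the typical gene. Control replicate 4 had the lowest TMM factor, 0.8, and the highest CPM of its group for 24 of the 34 genes, against 12 of 34 in TPM. Hepatocyte markers were abundant in every library, with Alb at a mean of 67855 TPM in Control.

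Seen per length, the lysosomal genes of Control liver spanned from Ctsb at a median of 478 TPM to Ctsk at 0.410 TPM. The abundant end was held by proteases and membrane proteins. Lamp2 (440 TPM), Ctsl (438), Lamp1 (422) and Psap (328) followed Ctsb, and the ranges of Ctsb, Lamp2, Ctsl and Lamp1 overlapped from each gene to the next. At the low end, Ctss (10.7 TPM), Laptm5 (8.29), Cd68 (6.79), Atp6v0d2 (0.510) and Ctsk (0.410) were all macrophage-enriched genes, accompanied by the glycosidases Glb1 (6.03), Idua (3.82) and Gla (2.36). Acp5 did not share the low level of the other macrophage-enriched genes, since it stood at 140 TPM, between Lipa (152) and Ctsa (99.7). In NASH, Ctss reached a median of 277 TPM and rank 10 of the 34, up from rank 27 in Control, and Cd68 moved from rank 29 to rank 14.

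**Figure D1:**
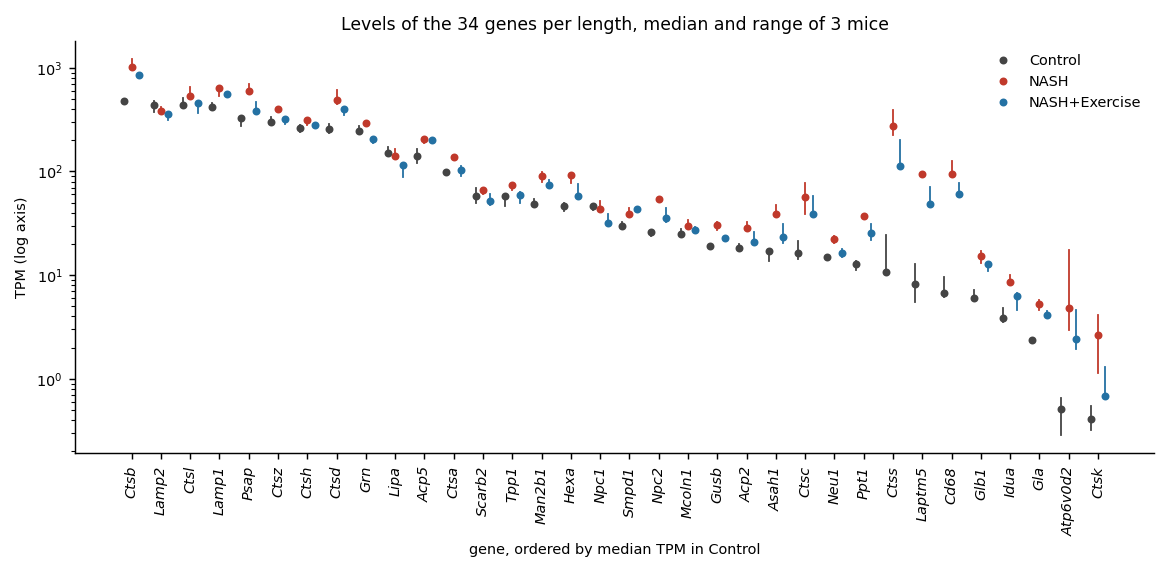
Level of each of the 34 genes in TPM on a log axis, with genes ordered by their median in Control; points are medians and lines the range of 3 mice, in dark grey for Control, red for NASH and blue for NASH+Exercise. The spread between groups is widest for Ctss, Laptm5, Cd68, Atp6v0d2 and Ctsk, while Ctsb stays the highest gene in every group, at 478, 1013 and 856 TPM.

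In NASH liver, 16 of the 34 lysosomal genes were significantly higher than in Control, 3 were lower and 15 were not called. Of all tested genes, 21.2% were called higher and 14.4% lower. With library size scaling and on TPM the counts among the 34 were 26 higher and 0 lower. With a log2 fold change above 1 as a further condition, 7 of the 34 were called higher (Ctsk, Ctss, Laptm5, Cd68, Atp6v0d2, Ctsc and Ppt1), against 15.3% of all genes. The median change of the 34 genes was 0.33 on the log2 scale and that of all genes 0.013. In whole liver RNA, more cells of a type and more RNA per cell cannot be told apart.

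Among the macrophage-enriched genes, 5 of 6 rose, beside 21.2% of all genes, with a median change of 3.18. Ctss (Entrez Gene 13040, chr3:95526786-95556405) encodes cathepsin S, a cysteine protease that trims the invariant chain of MHC class II in antigen-presenting cells. It stood at 8.21, 10.3 and 18.2 CPM in Control, at 148, 228 and 185 CPM in NASH, and at 138, 86.8 and 97.3 CPM in NASH+Exercise. The NASH mice were all far above the Control mice, and the NASH+Exercise mice lay between them without overlap. The change of NASH against Control was 3.93 (SE 0.32, adjusted p = 2.10e-05 by edgeR), a 15.3-fold difference.

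Cd68 (Entrez Gene 12514, chr11:69664213-69666170) encodes macrosialin, a heavily glycosylated lysosomal membrane protein used as a macrophage marker. Its CPM was 5.10, 6.56 and 7.04 in Control, 60.5, 71.6 and 59.0 in NASH, and 52.5, 44.7 and 51.0 in NASH+Exercise. The mice of each group were close together, and the change of 3.35 (SE 0.16, adjusted p = 1.88e-06 by edgeR) had the smallest p of the 34 genes. Laptm5 (Entrez Gene 16792, chr4:130912890-130936148), a lysosomal transmembrane protein of haematopoietic cells, stood at 8.86, 15.6 and 18.3 CPM in Control, 117, 111 and 119 in NASH, and 93.0, 72.8 and 79.6 in NASH+Exercise. It too was separated between all groups, with a change of 3.02 (SE 0.23, adjusted p = 1.06e-05 by edgeR) in NASH against Control.

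Both remaining genes that rose were scarce. Ctsk (Entrez Gene 13038, chr3:95499210-95509387), the collagen-degrading cathepsin K known from osteoclasts, had 7 to 10 counts in the Control mice. Its level was 0.483, 0.389 and 0.510 CPM in Control, 0.956, 3.03 and 2.21 CPM in NASH, and 1.13, 0.661 and 0.780 CPM in NASH+Exercise. NASH replicate 5 fell among the NASH+Exercise mice, while replicates 19 and 20 were above them. The change of NASH against Control was 2.15 (SE 0.45, adjusted p = 0.00406 by edgeR).

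Atp6v0d2 (Entrez Gene 242341, chr4:19876838-19922566) encodes the d2 form of a membrane subunit of the vacuolar ATPase, known from osteoclasts and macrophages. It stood at 0.483, 1.0 and 0.969 CPM in Control, 3.91, 20.4 and 6.55 CPM in NASH, and 6.46, 3.07 and 4.19 CPM in NASH+Exercise. NASH replicate 19 was far above the other NASH mice. The change was 3.65 (SE 0.66, adjusted p = 0.00240 by edgeR) with that mouse and 2.63 without it, still called. The d1 form, Atp6v0d1, which is expressed in most cells, was at 65.7, 83.2 and 72.2 TPM in Control and 80.7, 80.0 and 71.6 TPM in NASH. As a share of both forms in TPM, d2 made up 0.440, 0.609 and 0.892% in Control, 3.53, 17.9 and 6.34% in NASH, and 5.60, 2.79 and 3.09% in NASH+Exercise. The d1 form thus remained the main transcript in every mouse, and its CPM was not called (log2 change -0.38, adjusted p = 0.101 by edgeR).

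Acp5 (Entrez Gene 11433, chr9:22126727-22135746), which encodes tartrate-resistant acid phosphatase, was the exception in its group. Its CPM was 130, 178 and 99.8 in Control, 147, 138 and 139 in NASH, and 155, 173 and 186 in NASH+Exercise. Control mice spread over the whole range of the NASH mice. The change of NASH against Control was 0.05 (95% CI -0.36 to 0.46, adjusted p = 0.853 by edgeR), far below the changes of the other macrophage-enriched genes. With library size scaling the change was 0.43 and called (adjusted p = 0.0275 by edgeR), where the median of all genes was 0.36. Limma on log2(TPM + 1) gave 0.54 (adjusted p = 0.00427), where that median was 0.34. In TPM every NASH mouse (190 to 215) was above every Control mouse (120 to 163).

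**Figure D2:**
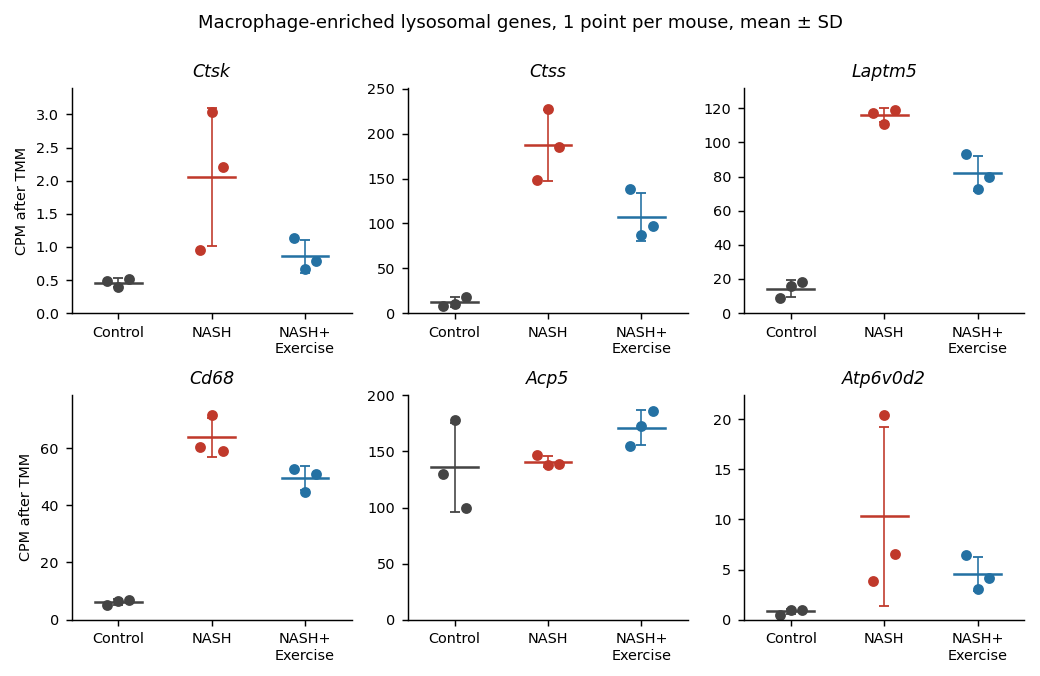
CPM after TMM scaling of the 6 macrophage-enriched genes in Control, NASH and NASH+Exercise mice, with 1 point per mouse and mean ± SD of 3 mice. Ctss, Laptm5, Cd68, Ctsk and Atp6v0d2 are higher in every NASH mouse than in any Control mouse, and NASH replicate 19 stands apart for Atp6v0d2 at 20.4 CPM. For Acp5 the Control mice overlap both other groups, and every NASH+Exercise mouse is above every NASH mouse.

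The housekeeping hydrolases moved much less. Of the 20, 9 rose, 1 fell and 10 were not called, with a median change of 0.33. Of all genes, 21.2% were called higher and 14.4% lower. The largest change among them, 1.36 for Ctsc, was a smaller estimate than those of the 5 macrophage-enriched genes that rose, although its interval (0.93 to 1.79) overlapped that of Ctsk (1.15 to 3.15). Their summed level was 2892 to 3690 CPM in Control, it lay at 3735 to 3870 CPM in NASH and at 3491 to 3766 CPM in NASH+Exercise. The top of the Control range was Control replicate 4, and the other Control mice were at 2892 and 2994 CPM. In TPM the same sum was 2208 to 2397 in Control and 3466 to 3997 in NASH. The sum of the macrophage-enriched genes went from 145 to 212 CPM in Control to 478 to 572 in NASH, with Acp5 as the main contributor in Control.

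Cell type markers moved beside these values, and of all genes 21.2% were called higher and 14.4% lower. All 10 macrophage markers (among them Adgre1, Csf1r and Mpeg1) rose in NASH, with a median change of 3.67, and their summed level went from 62.1 to 117 CPM in Control up to 910 to 1064 CPM in NASH, with 652 to 738 CPM in NASH+Exercise. None of them was at 0 in any mouse. Kupffer cell markers rose for 4 of 5, from a sum of 63.3 to 114 CPM to one of 358 to 625, neutrophil markers for 6 of 8 and T cell markers for 5 of 5, whereas the 4 B cell markers were not called (adjusted p 0.102 to 0.818 by edgeR). Endothelial markers rose for 3 of 5, stellate cell markers for 2 of 5 and cholangiocyte markers for 2 of 4, the last with a sum of 20.2 to 53.5 CPM in NASH that was highest in replicate 19. Hepatocyte markers summed to 113509 to 128493 CPM in Control and 70181 to 98723 in NASH, although only Ttr of 6 was called lower. Most of this sum was Alb, with means of 94482 CPM in Control and 65821 CPM in NASH, which was not called (adjusted p = 0.0889 by edgeR). In TPM the same sum overlapped, at 92126 to 101853 in Control and 82097 to 104255 in NASH. The part of these cell types in the lysosomal changes was not tested.

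Divided by the summed macrophage markers of the same mouse, Cd68 gave a ratio of 0.0604 to 0.0863 in Control, of 0.0645 to 0.0672 in NASH mice and of 0.0674 to 0.0782 in NASH+Exercise mice. The ratio of Cd68 therefore overlapped between Control and NASH, whereas that of Ctss was higher in every NASH mouse (0.163 to 0.214) than in any Control mouse (0.132 to 0.156) and that of Laptm5 lower (0.104 to 0.130 against 0.142 to 0.205). The Ctss ratio of the NASH+Exercise mice (0.131 to 0.186) overlapped both other groups. For the housekeeping protease Ctsb the same ratio was 4.41 to 8.85 in Control and 0.922 to 1.03 in NASH, with no overlap. The marker sum itself went from 62.1 to 117 CPM in Control to 910 to 1064 CPM in NASH. This ratio therefore falls for any gene that rose much less than the markers, and it is not particular to Ctsb.

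**Figure D3:**
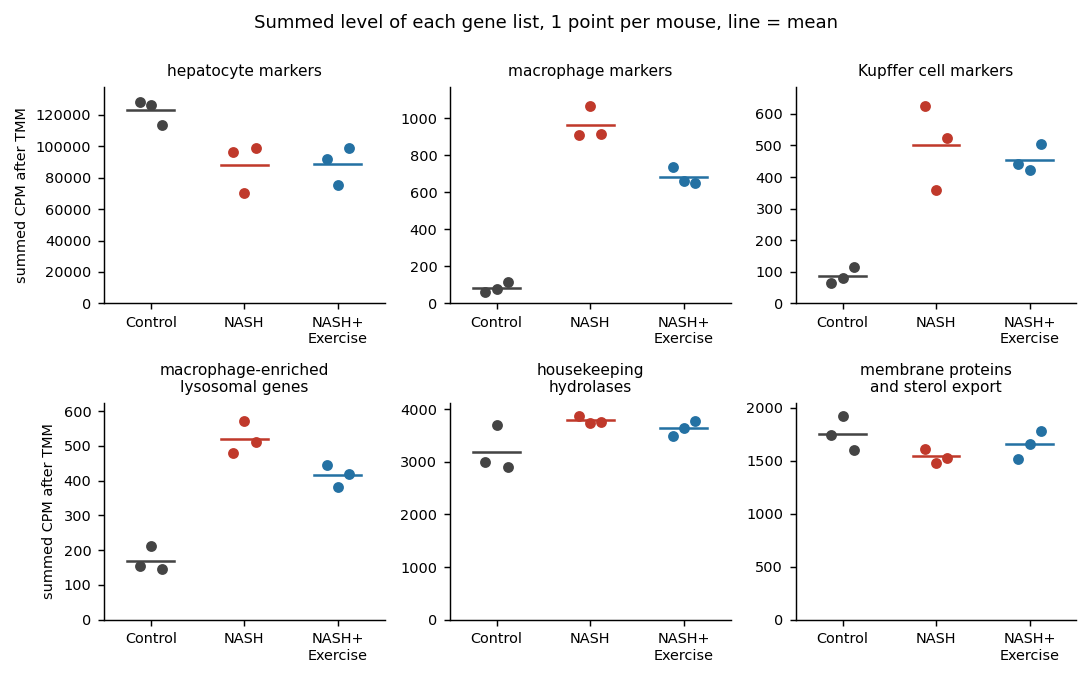
Summed CPM after TMM scaling of 3 lists of cell type markers (top) and 3 groups of lysosomal genes (bottom) in each mouse, with lines at the group means. Macrophage markers and macrophage-enriched lysosomal genes are separated between Control and NASH (62.1 to 117 against 910 to 1064 CPM, and 145 to 212 against 478 to 572 CPM), while housekeeping hydrolases (2892 to 3690 against 3735 to 3870 CPM) and membrane proteins (1603 to 1927 against 1482 to 1616 CPM) lie closer together; in TPM the last 2 sums are higher in every NASH mouse than in any Control mouse (3466 to 3997 against 2208 to 2397, and 1111 to 1246 against 970 to 1051).

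Among the proteases, 3 of 8 rose in NASH, beside 21.2% of all genes, and the median change was 0.02. Ctsc (Entrez Gene 13032, chr7:88278024-88315861) encodes cathepsin C, the dipeptidyl peptidase that activates granule serine proteases of immune cells. It was measured at 65.9, 64.2 and 75.0 CPM in Control, 206, 124 and 196 CPM in NASH, and 189, 157 and 142 CPM in NASH+Exercise. Every mouse on the Ath diet exceeded every Control mouse, and the change was 1.36 (SE 0.19, adjusted p = 0.000397 by edgeR). The cysteine protease Ctsb (change 0.71, adjusted p = 0.00353 by edgeR) and the aspartic protease Ctsd (change 0.53, adjusted p = 0.0409 by edgeR) rose by less, and the call of Ctsd was lost in 11 of 16 other settings. Ctsb shares 12.8% of its exon bases with Fdft1 on the other strand, and whether reads were counted by strand is not given in the sources used here. The same holds for Acp2 (12.6% shared with Ddb2), Ctsa (10.5% with Pltp) and Lamp1 (9.31% with Grtp1).

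The 5 other proteases were not called, namely the carboxypeptidases Ctsa (change 0.06) and Ctsz (-0.06), the endopeptidase Ctsl (-0.11), the tripeptidyl peptidase Tpp1 (-0.02) and the aminopeptidase Ctsh (-0.21). Ctsh (Entrez Gene 13036, chr9:90054267-90076095) had 262, 355 and 252 CPM in Control, 273, 211 and 266 in NASH, and 257, 281 and 299 in NASH+Exercise. Its groups overlapped, and the 95% CI of its change was -0.58 to 0.15. Under library size scaling and on TPM the changes of Ctsz and Tpp1 turned positive and were called, at 0.31 and 0.32 with library size scaling, where the median of all genes was 0.36.

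All 7 glycosidases had a positive change in NASH, and 4 of them rose, beside 21.2% of all genes: Glb1, Idua, Gla and Hexa. Their median change was 0.50. Glb1 (Entrez Gene 12091, chr9:114401078-114474379), the acid beta-galactosidase used as a senescence stain, was at 9.71, 13.6 and 8.16 CPM in Control, 21.2, 17.2 and 16.6 in NASH, and 17.4, 16.4 and 21.2 in NASH+Exercise. NASH and NASH+Exercise mice could not be separated, and both lay above Control (change of NASH 0.80, SE 0.20, adjusted p = 0.00888 by edgeR). Idua, which acts on heparan and dermatan sulphate, changed by 0.73 (adjusted p = 0.00230), Gla, the alpha-galactosidase lacking in Fabry disease, by 0.70 (adjusted p = 0.00642), and Hexa, the alpha subunit of beta-hexosaminidase, by 0.50 (adjusted p = 0.0313), all by edgeR. The call of Hexa was lost in 7 of 16 other settings, and 12.8% of its exon bases overlap Tmem202 on the other strand. Glb1 shares 5.49% of its exon bases with Tmppe on the same strand, where counting by strand would make no difference.

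The mannosidase Man2b1 (0.40, adjusted p = 0.0799 by edgeR), the glucuronidase Gusb (0.25, adjusted p = 0.209) and the sialidase Neu1 (0.12, adjusted p = 0.496) were not called. Neu1 (Entrez Gene 18010, chr17:34931253-34937297) was at 39.1, 45.6 and 35.3 CPM in Control, 47.8, 40.6 and 41.7 in NASH, and 38.3, 39.9 and 39.9 in NASH+Exercise. Control overlapped both other groups, and every NASH+Exercise mouse was below every NASH mouse. Neu1, Glb1 and the protective protein Ctsa work as a complex in the lysosome, and of the 3 only Glb1 was called with TMM scaling. With library size scaling Ctsa (0.42, adjusted p = 0.00678 by edgeR) and Neu1 (0.48, adjusted p = 0.00470) were called as well, and both were also called by limma on TPM.

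The lipid and phosphate hydrolases went in both directions, with 3 of 7 higher and 1 lower, beside 21.2 and 14.4% of all genes. Ppt1 (Entrez Gene 19063, chr4:122836077-122859175), the thioesterase that removes palmitate from proteins, stood at 21.5, 22.1 and 20.3 CPM in Control, 46.9, 43.6 and 49.8 CPM in NASH, and 42.9, 39.9 and 37.3 CPM in NASH+Exercise. All 3 groups were separated from each other, and the change of NASH against Control was 1.13 (SE 0.11, adjusted p = 3.37e-05 by edgeR). The acid ceramidase Asah1 rose by 0.90 (adjusted p = 0.000158 by edgeR) and prosaposin, Psap, the precursor of the saposins that present sphingolipids to their hydrolases, by 0.56 (adjusted p = 0.0154 by edgeR). The call of Psap was lost in 3 of 16 other settings. The acid sphingomyelinase Smpd1 (-0.04), the acid phosphatase Acp2 (0.25) and progranulin, Grn (-0.26), were not called.

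Lipa (Entrez Gene 16889, chr19:34492316-34527474) encodes lysosomal acid lipase, which frees cholesterol and fatty acids from the esters and triglycerides of lipoproteins and droplets. It was at 304, 354 and 309 CPM in Control, 252, 197 and 224 CPM in NASH, and 189, 223 and 182 CPM in NASH+Exercise. Every Control mouse was above every mouse on the Ath diet. The change of NASH against Control was -0.52 (SE 0.14, adjusted p = 0.0150 by edgeR), but it came to -0.17 and was not called with library size scaling (adjusted p = 0.265), so that its fall holds relative to the typical gene. The call of Lipa was lost in 4 of 16 other settings, among them without NASH replicate 19.

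Of the 6 membrane and sterol export genes, 1 rose and 2 fell, beside 21.2% of all genes called higher and 14.4% lower. Their median change was -0.21. Npc2 (Entrez Gene 67963, chr12:84754559-84773112), the soluble protein that hands cholesterol to Npc1, was at 52.3, 67.6 and 52.2 CPM in Control, 90.1, 82.1 and 94.9 in NASH, and 80.1, 67.2 and 79.6 in NASH+Exercise. It was higher in all NASH mice than in any Control mouse (change 0.63, SE 0.14, adjusted p = 0.00468 by edgeR). Its membrane partner Npc1, which passes cholesterol through the lysosomal membrane, changed the other way, by -0.43 (adjusted p = 0.0360 by edgeR).

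Lamp2 (Entrez Gene 16784, chrX:38399647-38456460), a major glycoprotein of the lysosomal membrane with a role in autophagy, stood at 667, 665 and 637 CPM in Control, 449, 469 and 483 CPM in NASH, and 470, 534 and 502 CPM in NASH+Exercise. Its Control mice were all above the others, with a change of -0.49 (SE 0.12, adjusted p = 0.00955 by edgeR) in NASH. As for Lipa, the calls of Lamp2 and Npc1 did not hold with library size scaling, where their changes were -0.14 and -0.08. The call of Npc1 was lost in 8 of 16 other settings, among them without Control replicate 3 (-0.40) or 4 (-0.39) and without NASH replicate 19 (-0.36) or 20 (-0.43), and that of Lamp2 in 3. Lamp1 (0.05), the channel Mcoln1 (-0.14) and Scarb2 (-0.29, adjusted p = 0.107 by edgeR), the transport receptor of glucocerebrosidase, were not called.

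**Figure D4:**
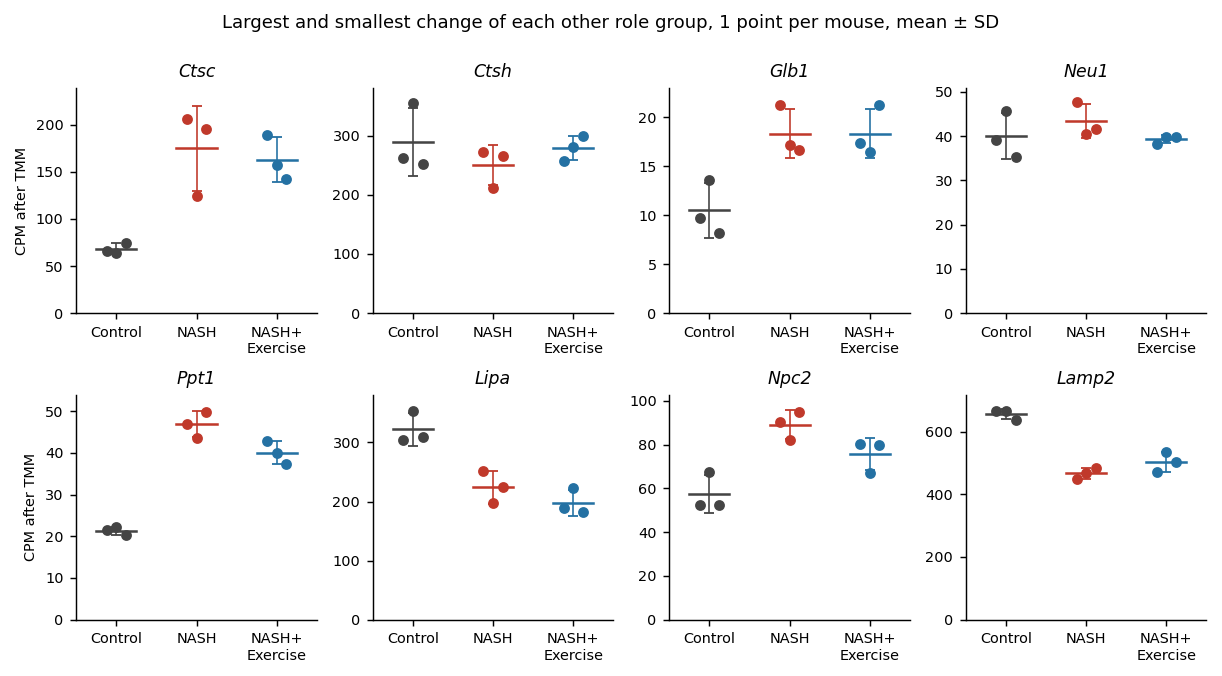
CPM after TMM scaling of the gene with the largest and the gene with the smallest change of NASH against Control in each of the 4 other groups, with 1 point per mouse and mean ± SD of 3 mice. Ctsc, Glb1, Ppt1 and Npc2 are higher and Lipa and Lamp2 lower in NASH than in Control without overlap. For Ctsh and Neu1 the Control and NASH mice overlap.

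To ask whether exercise changed these genes, NASH+Exercise was compared with NASH. By edgeR, 0 of the 34 genes were called in either direction, beside 0.110% of all genes called higher and 0.0514% called lower. DESeq2 on the 6 mice called 2 of them lower, Ctss (-0.75, adjusted p = 0.0168) and Laptm5 (-0.45, adjusted p = 0.0369). Limma on TPM with a pseudocount of 1 called 3 other genes lower (Ctsa, Psap and Grn) and with 0.1 only Grn, on a scale where the median of all genes was itself -0.26 and -0.33.

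At an unadjusted p under 0.05, 6 of the 34 genes had a negative change with exercise and 1 a positive change, against 10.7 and 4.60% of all genes. The 6 were Ctsk, Ctss, Laptm5, Cd68, Idua and Asah1, and the positive change was that of Smpd1. In 12 of the 34 genes every NASH+Exercise mouse was below every NASH mouse, and in 2 every one was above, where 14.9 and 9.16% of all genes showed such separation. The median change was -0.12 for the 34 genes, -0.65 for the macrophage-enriched genes, -0.11 for the housekeeping hydrolases and -0.033 for all genes.

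Among the macrophage-enriched genes the estimates with exercise were -1.26 for Ctsk (95% CI -2.17 to -0.35), -1.17 for Atp6v0d2 (-2.41 to 0.07), -0.80 for Ctss (-1.44 to -0.16), -0.50 for Laptm5 (-0.97 to -0.03), -0.37 for Cd68 (-0.67 to -0.06) and 0.28 for Acp5 (-0.13 to 0.69). None passed the adjustment over all genes (adjusted p 0.209 to 0.503 by edgeR). Without NASH replicate 19 the estimate was -0.17 for Atp6v0d2 and -0.85 for Ctsk, and the median of the group was -0.38. The 10 macrophage markers were also lower in sum (652 to 738 against 910 to 1064 CPM), all 10 with a negative change at a median of -0.55 (adjusted p 0.128 to 0.532 by edgeR, 5 of 10 at an unadjusted p under 0.05). The Kupffer cell markers overlapped in sum (421 to 503 CPM in NASH+Exercise against 358 to 625 in NASH). Of them 3 had a negative and 2 a positive change, at a median of -0.16. Median changes were -0.68 for T cell, -0.74 for B cell and -1.18 for cholangiocyte markers. They were -0.37 for stellate cell, -0.23 for neutrophil, -0.22 for endothelial and 0.16 for hepatocyte markers. None of these markers was called by edgeR. The part of these cell types in the differences was not tested.

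Asah1 had the smallest p of the 34 genes in this comparison and is named here after its values were seen. It was at 26.5, 25.1 and 25.0 CPM in Control, 46.1, 50.4 and 46.7 CPM in NASH, and 38.8, 33.8 and 31.8 CPM in NASH+Exercise. The 3 groups were separated from each other. The change with exercise was -0.46 (SE 0.11, adjusted p = 0.131 by edgeR, unadjusted p = 0.00183). Among the housekeeping hydrolases, Ctsb (-0.0044, 95% CI -0.33 to 0.32) and Glb1 (-0.0005, 95% CI -0.42 to 0.42) had estimates close to 0. Smpd1 had a change of 0.41 and was not called (adjusted p = 0.267 by edgeR), with 55.3, 42.1 and 50.3 CPM in NASH and 59.6, 65.2 and 71.7 CPM in NASH+Exercise.

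NASH+Exercise was also set against Control, with the same Control mice as above. Here 10 of the 34 genes were higher, 4 were lower and 20 were not called, beside 15.6% of all genes called higher and 9.58% lower. The 5 genes higher with a log2 fold change above 1 (Ctss, Laptm5, Cd68, Atp6v0d2 and Ctsc) stood beside 10.4% of all genes. Ctss was 3.13 above Control, Cd68 2.98, Laptm5 2.52 and Atp6v0d2 2.48 on the log2 scale, whereas Ctsk at 0.89 was not called (adjusted p = 0.210 by edgeR). Higher calls also went to Ctsb (0.71), Ctsc (1.25), Gla (0.67), Glb1 (0.80), Asah1 (0.45) and Ppt1 (0.91).

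Lower in NASH+Exercise than in Control were Lipa (-0.70, adjusted p = 0.00449), Npc1 (-0.59, adjusted p = 0.0121), Grn (-0.51, adjusted p = 0.0381) and Lamp2 (-0.39, adjusted p = 0.0381), all by edgeR. For Lipa and Npc1 the call also held with library size scaling, at -0.55 and -0.43, while that of Lamp2 did not (-0.24). The calls of Lamp2, Grn and Atp6v0d2 against Control were lost in 14, 10 and 5 of 16 other settings. The count of higher calls depended on 1 Control mouse: without Control replicate 4 it was 16 in place of 10.

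**Figure D5:**
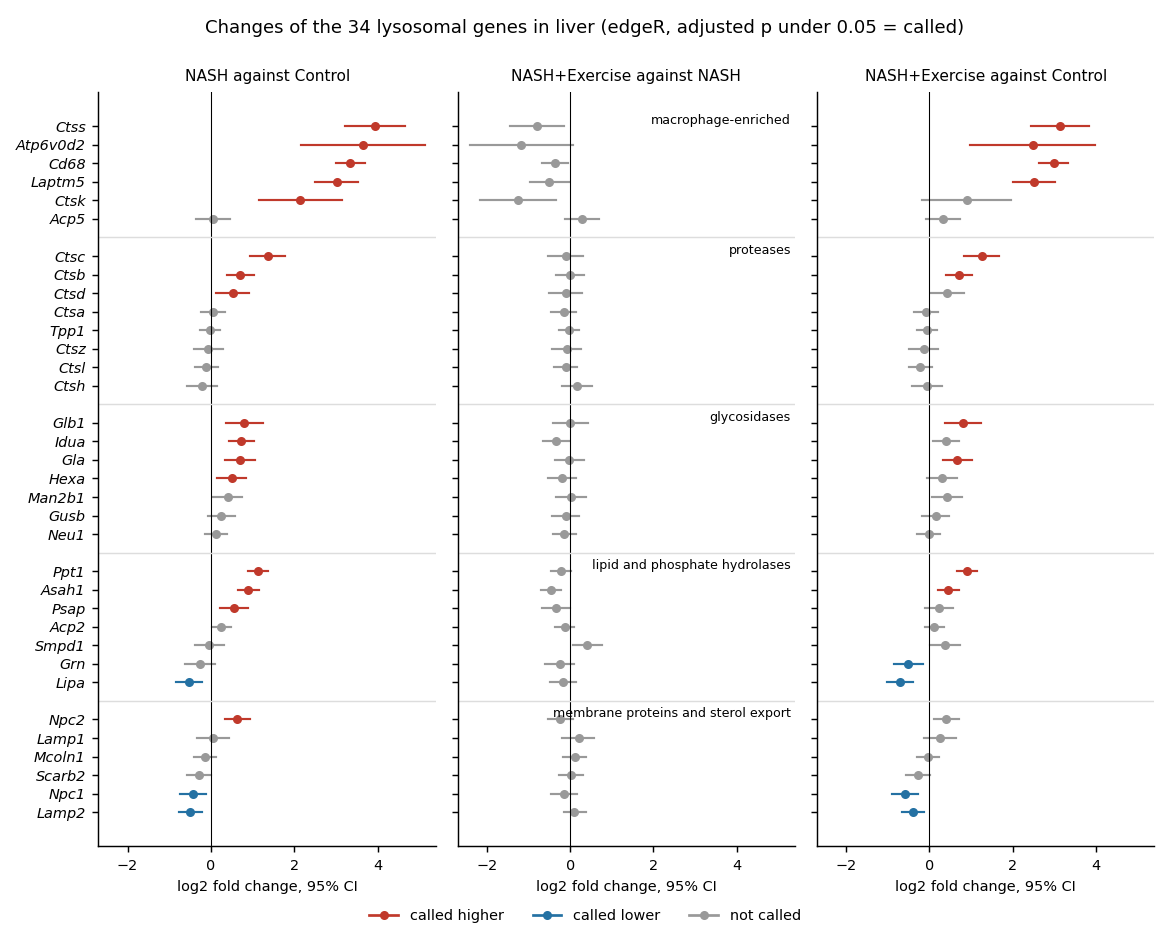
Log2 fold changes with 95% confidence intervals of the 34 genes by functional group in the 3 comparisons, from edgeR over 9 mice; red and blue mark genes called higher and lower at an adjusted p under 0.05 and grey those not called. In NASH against Control, the macrophage-enriched genes other than Acp5 lie farthest to the right (2.15 to 3.93), and 0 genes are called in NASH+Exercise against NASH.

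The promoters were examined for the motif TCACGTGA, the centre of the CLEAR element through which the Tfeb family of transcription factors acts on lysosomal genes. RefSeq promoters (GRCm38.p6) were at hand for 29 of the 34 genes, and the 250 bases before each listed start were searched on both strands, which read alike for this motif. It was present in 4 of the 29, Ctsa, Ctsd, Gla and Mcoln1, and in 1.69% of the 10824 tested genes with a promoter. Its core CACGTG, which every such match contains, was present in 7 of the 29 (also in Ctsl, Glb1 and Lamp1) and in 9.58% of the tested genes. GAGGAAGT, a form of the site bound by the myeloid factor PU.1, was found in Ctsc and Gla and in 3.07% of the tested genes. The 4 promoters with TCACGTGA are shown around the motif, which is in capitals, together with the 100 bases before the start of Ctss and Cd68, the genes with the largest change and with the smallest p in NASH, which hold none.
Ctsa, chr2:164833714-164833772, plus strand: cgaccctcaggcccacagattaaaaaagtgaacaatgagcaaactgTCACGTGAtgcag
Ctsd, chr7:142387873-142387972, minus strand: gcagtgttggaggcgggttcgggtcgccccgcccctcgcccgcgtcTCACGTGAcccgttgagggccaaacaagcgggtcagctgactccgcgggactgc
Gla, chrX:134601147-134601246, minus strand: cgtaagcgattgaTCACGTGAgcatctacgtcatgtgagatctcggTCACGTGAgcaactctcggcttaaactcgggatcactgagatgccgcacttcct
Mcoln1, chr8:3500427-3500518, plus strand: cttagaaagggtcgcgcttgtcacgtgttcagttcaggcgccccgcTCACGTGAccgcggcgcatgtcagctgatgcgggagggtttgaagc
Ctss, chr3:95526686-95526785, plus strand: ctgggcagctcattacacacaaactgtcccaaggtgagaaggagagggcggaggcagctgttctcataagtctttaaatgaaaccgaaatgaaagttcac
Cd68, chr11:69666171-69666270, minus strand: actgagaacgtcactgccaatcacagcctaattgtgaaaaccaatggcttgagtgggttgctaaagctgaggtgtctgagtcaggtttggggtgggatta

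The motif stood 5 bases before the listed start of Ctsa and 38 before that of Mcoln1, and Gla held 2 copies. The listed start of Ctsa lies inside the gene (chr2:164832872-164841032), not at its first base. The same holds for Ctsl (chr13:64361890-64370772, minus strand), where the stretch around the core, chr13:64370705-64370770, lies inside the gene. Of the 4 genes with TCACGTGA, Ctsd and Gla rose in NASH while Ctsa (0.06) and Mcoln1 (-0.14) were not called. Of the 3 other genes with the core, Glb1 rose and Ctsl and Lamp1 were not called. A match in the letters is a description of the sequence only.

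Other genes of the pathway were described from lists drawn up beside the 34. Of 25 other lysosomal hydrolases, 8 rose and 3 fell in NASH, with a median change of 0.29, where 21.2% of all genes were called higher and 14.4% lower. Among those that rose were Lgmn, the asparaginyl endopeptidase that matures several cathepsins (1.94, SE 0.12, adjusted p = 4.55e-06 by edgeR), and the phospholipase Pla2g15 (1.24, SE 0.14). The 3 that fell were Ctsf, Gaa and Hyal1, by -0.76, -0.71 and -0.51.

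Of 17 other vacuolar ATPase genes, 3 rose and none fell, a share near that of all genes called higher (21.2%), namely Tcirg1 (0.90), the a3 form of a membrane subunit that is prominent in osteoclasts and immune cells, Atp6v1b2 (0.52) and Atp6v1g1 (0.49), and the median was -0.09. Of 12 genes for sorting to the lysosome 3 rose, also near that share, the sorting receptors Sorl1 (2.54) and Sort1 (0.63) and Gnptab (0.76), a subunit of the enzyme that starts the mannose 6-phosphate tag. Of the 4 Tfeb family genes, Tfec (2.18, adjusted p = 0.000250 by edgeR) and Mitf (0.77, adjusted p = 0.0115) rose, and Tfeb (0.31) and Tfe3 (0.05) were not called.

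Of 6 listed cathepsin inhibitors 3 could be tested. The cystatin Cstb rose by 0.88 (adjusted p = 0.000440 by edgeR) and Cst3 was not called (0.14). Cst7, which is found in immune cells, was called higher from 1 count in each Control mouse (0.0510 to 0.0556 CPM) to 0.425 to 0.790 CPM in NASH, and no fold is given at such counts. In NASH+Exercise against NASH, 0 of the 61 tested genes of these 5 lists were called by edgeR, with 7 lower and 0 higher at an unadjusted p under 0.05, beside 10.7 and 4.60% of all genes. DESeq2 called Sorl1 lower, and limma on TPM with a pseudocount of 1 called 2 genes lower, among them Cstb.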

How the data were processed

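RNA of whole liver from 9 mice (3 Control, 3 NASH, 3 NASH+Exercise) was sequenced as mRNA libraries. For each mouse and gene the authors deposited an expected count, not normalized, and a TPM value, scaled by transcript length to the same total in every library. The FPKM values that the authors deposited beside them, scaled by length and library size, were not used. The submitters' processing notes name HISAT2 2.1.0, Bowtie2 2.2.5, RSEM 1.2.8 and GRCm38.p6 without stating their roles, and multi-mapping and strand handling are not given in the sources used here. Symbols and coordinates came from a RefSeq gene table of GRCm38.p6 (17728 of 17846 genes matched), exon overlaps from GENCODE.

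Expected counts were rounded, filtered with filterByExpr by group (minimum 10 counts, total 15), scaled by TMM and fitted with the robust quasi-likelihood model of edgeR 4.0.16 in R 4.3.3 to the 9 mice, using a term for group and none for other factors, which left 6 residual degrees of freedom. Alternatives were RLE or library size scaling, no filter, the 6 mice of a comparison alone, DESeq2 1.42.0, limma 3.58.1 on log2(TPM + 1) or log2(TPM + 0.1), the study's fold threshold, and leaving out each mouse. Count and TPM tests were tested on simulated data. Values of all mice are given for the macrophage-enriched genes and, in each other functional group, for the genes with the largest and smallest change of NASH against Control, with up to 3 called genes of each further list, some of which are not reported here. The genes and lists were chosen with earlier results of these data known. Fold changes carry the precision of 3 mice per group, and counts without molecular identifiers are not independent molecules.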

Additional observations from a re-analysis of the deposited data

How the results depend on the processing

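No paired analysis was possible because the groups held different mice. In NASH against Control, 16 genes were called higher and 3 lower. With library size scaling and with limma on TPM at either pseudocount the counts were 26 and 0, with a log2 fold change above 1 as a further condition they were 7 and 0, and with 1 mouse left out they were 13 to 19 and 1 to 3, the lowest count of lower calls being that without NASH replicate 19. The changes of Ctsz, Tpp1 and Smpd1, below 0 with TMM, became 0.31, 0.32 and 0.32 with library size scaling, 0.40, 0.40 and 0.40 with limma on log2(TPM + 1), and 0.40, 0.41 and 0.41 on log2(TPM + 0.1), all called. These scalings moved the median of all genes by 0.36, 0.34 and 0.44.

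In NASH+Exercise against NASH, genes called lower numbered 0 with edgeR in all its settings and in every run without 1 mouse, 2 with DESeq2, and 3 and 1 with limma on TPM at pseudocounts of 1 and 0.1. Genes with the higher mean in NASH+Exercise than in NASH were 1 of 34 in TPM and 8 of 34 in CPM after TMM. The median change of all genes was itself -0.26 on log2(TPM + 1) and -0.03 after TMM. The share of all genes with a higher mean was not counted. In NASH+Exercise against Control, the 10 higher calls became 18 with library size scaling, 17 and 18 with limma on TPM, 5 with the fold condition, and 8 to 16 with 1 mouse left out, the highest being that without Control replicate 4. The 4 lower calls became 2 without the low-count filter and with the 6 mice alone, 0 with the fold condition, and 1 to 3 with 1 mouse left out, the lowest being that without NASH+Exercise replicate 18. Ctsk, Ctss, Laptm5, Cd68, Ctsc and Ppt1 were called higher in NASH than in Control in all 16 other settings. So were Atp6v0d2, Ctsb, Gla, Glb1, Idua, Asah1 and Npc2. These 16 settings leave out the fold condition. With 3 mice per group, modest changes and the scarce Ctsk and Atp6v0d2 are measured with wide intervals.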
